A study of Mus musculus with 2 samples.

Results

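Translation initiation factors were compared in mouse CD4 T cells that had been activated beside antigen-presenting cells (APC) with or without an OX40L transgene. They were taken as all genes whose symbol starts with Eif and a digit, without the eIF2 gamma genes Eif2s3x and Eif2s3y, among the probe sets that the platform annotation pairs with 1 gene symbol. This gave 39 genes, with 85 probe sets, of 17097 genes on the array. All 39 matched the RefSeq gene table (GRCm38.p6) by Entrez number, and 0 symbols changed. The rule used names only and no measured value.

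The RNA came from naive Foxp3-negative CD4 T cells (CD62L high, CD44 low) of C57/Bl6 mice, 6 weeks old, that carry the Foxp3-eGFP reporter. In the OX40L-Tg APC group the APC were CD3-depleted splenocytes of OX40L-Tg mice, and in the Wt APC group they came from wild type B6 mice. Both groups shared the reporter, soluble anti-CD3, APC treated with mitomycin C at 50 ug/ml, 48 hours of culture and a second sort of living CD4 T cells. The promoter that drives the OX40L transgene, the number of mice and any pooling are not given in the sources used here. Each group had 1 array (Affymetrix HT MG-430 PM), so no difference could be tested, and nothing measured the spread between cultures.

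Initiation is the step at which the small ribosomal subunit, with the initiator tRNA, is brought to an mRNA and finds its start codon. eIF2 delivers the initiator tRNA, eIF3 holds the small subunit and the mRNA together, and the eIF4F complex (the cap-binding protein eIF4E, the scaffold eIF4G and the helicase eIF4A) recognises and unwinds the capped end of the mRNA. Both the loading of eIF2 and the cap binding of eIF4E are switched by signals, through eIF2 alpha kinases and through the mTORC1-controlled 4E-binding proteins. Activated T cells are known to raise protein synthesis strongly before they divide.

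Transcripts of the initiation factors that had a value read nearly alike with both kinds of APC. A gene was counted as above the floor when it reached the median of all probe sets, 14.7 units on both arrays, on at least 1 array, and 38 of the 39 did so. Eif2b5, the catalytic subunit gene of the exchange factor eIF2B, stayed below it, at 10.0 units with OX40L-Tg APC and 9.13 units with Wt APC. Each difference given below is the log2 value with OX40L-Tg APC minus that with Wt APC. The median difference of the 38 was 0.05, beside 0.02 over all 10541 genes above the floor. Of the 38, 26 read higher with OX40L-Tg APC, where 54.0% of all genes did, and 12 read lower, where 46.0% did.

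Differences of 1.5-fold or more are uncommon over the whole array, so 38 genes are too few to show a shortage of them. None of the 38 reached 2-fold, beside 2.72% of all genes above the floor in either direction. Eif4e3 was the 1 gene past 1.5-fold, a size that 7.22% of all genes reached. At 1.2-fold there were 3 higher (Eif4ebp1, Eif6 and Eif4e), beside 14.3% of all genes, and 1 lower, again Eif4e3, beside 12.4%. The other 34 of 38 (89.5%) lay within 1.2-fold, as 73.3% of all genes did. The median size of a difference, sign left out, was 0.06 for the 38 and 0.14 for all genes.

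Brighter genes differed less between these arrays, so the same was counted among genes with a mean of at least 1000 units. There, 1 of 22 initiation factors (Eif6) and 12.1% of 1424 genes passed 1.2-fold in either direction. At 1.5-fold it was 0 of the 22 and 2.81% of the 1424, and at 2-fold 0 of the 22 and 0.913%. The median size was 0.05 for the 22 and 0.08 for the 1424.

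**Figure D1:**
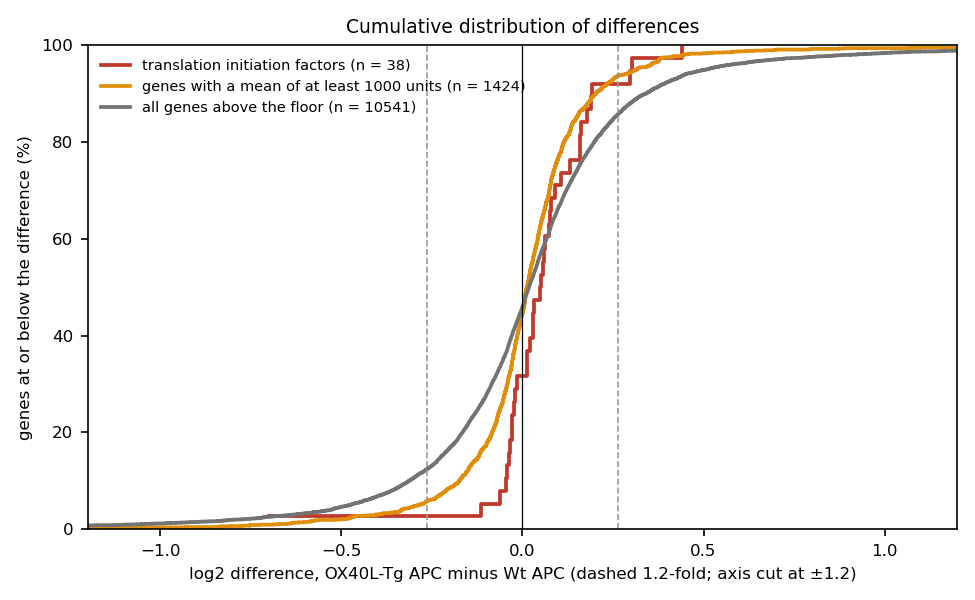
Cumulative share of genes (percent, vertical axis) against the log2 difference OX40L-Tg APC minus Wt APC (horizontal axis), for 38 translation initiation factors, 1424 genes with a mean of at least 1000 units and 10541 genes above the floor. The curve of the initiation factors is steep around 0, with 34 of 38 between the dashed 1.2-fold lines and Eif4e3 alone at the far left.

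Probe sets of the same gene gave the available measure of technical scatter, a partial one, since all were read on the same 2 arrays. A background level was set at the 95th percentile of 38 genes restricted to other organs, 46.2 units with OX40L-Tg APC and 40.9 units with Wt APC, and 37 of the 39 initiation factors passed it on at least 1 array. Of the 85 probe sets 68 did. With OX40L-Tg APC 45 of these were higher and 23 lower, where 54.0% and 46.0% of all genes above the floor were. Sets of the same gene are not independent, and the share over all probe sets was not counted. In 19 initiation factors with several sets above background, the sets of a gene differed with a pooled SD of 0.08. In 2981 genes of the array it was 0.14. In 10 of the 19 (52.6%) all sets had the same sign, as in 69.5% of the 2981, so the direction of the other 9 depends on the set.

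The sorted cells read as T cells on both arrays, but other markers differed. Of 9 CD4 T cell markers 7 had a value, and all 7 were above background, with a summed level of 14498 units with OX40L-Tg APC and 17059.5 units with Wt APC. MHC class II genes (6 of 7 above background) summed to 3605 units with OX40L-Tg APC and 2699.6 units with Wt APC. B cell genes (5 of the 6 with a value above background) summed to 949 units with OX40L-Tg APC and 697 units with Wt APC, with the B cell factor Pax5 below the floor. The 3 erythroid genes with a value summed to 232 units with OX40L-Tg APC and 1189.7 units with Wt APC, most of it from Hba-a1 at 207 units with OX40L-Tg APC and 1161 units with Wt APC. Of 8 myeloid and dendritic cell genes 1 was above background, with sums of 146 units (OX40L-Tg APC) and 136 units (Wt APC). The labels' extraction text names adipose tissue, and all 3 adipocyte genes with a value (Adipoq, Fabp4, Lep) were below the floor, at 8.09 to 8.89 units. The part of these other cells in the differences of the initiation factors was not tested, and fewer cells of a type cannot be told apart from less RNA per cell.

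**Figure D2:**
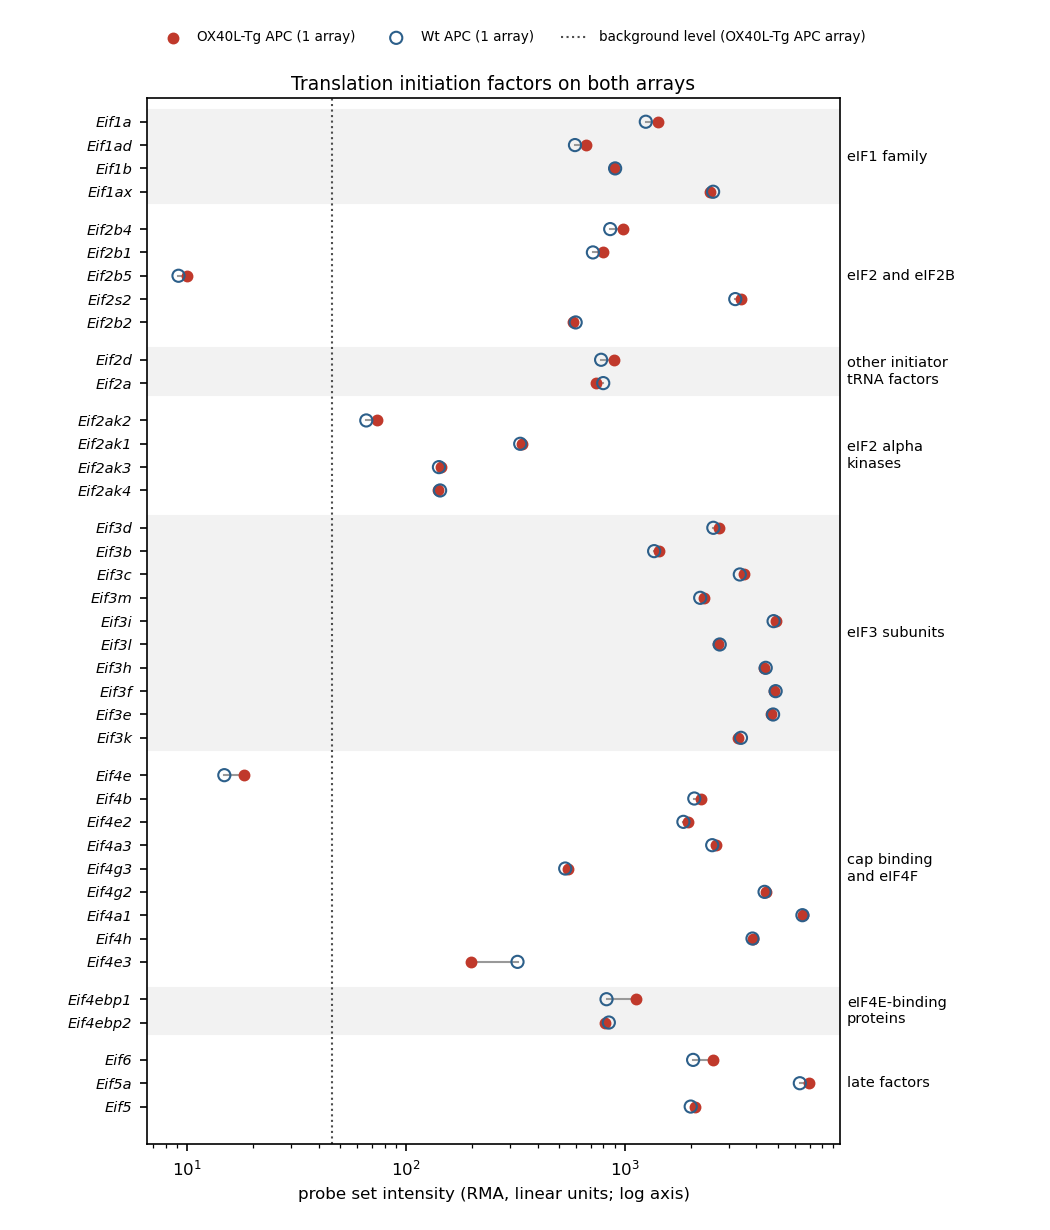
Intensity of each translation initiation factor (RMA, linear units on a log axis) with OX40L-Tg APC (filled, 1 array) and Wt APC (open, 1 array), grouped by role. The symbols overlap for most genes, and the clearest gaps are those of Eif4e3, at 199 units with OX40L-Tg APC and 324 units with Wt APC, and Eif4ebp1, at 1122 units with OX40L-Tg APC and 826 units with Wt APC. Intensities of different genes are not comparable, since their probes differ.

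The promoters of several of these genes carry the E-box CACGTG, the motif bound by Myc, which is known to drive genes of protein synthesis in growing cells. RefSeq promoter windows (GRCm38.p6, 250 bases before to 50 after the start site) were at hand for 31 of the 39 genes. CACGTG, which reads the same on both strands, occurred in 7 of the 31 (22.6%) and in 8.09% of 27025 genes. By single window the share was 7.15% of 32851. The 9 sites follow with 15 bases on either side, 5′ to 3′ on the strand of the gene and with the motif in capitals. They are shown because the Myc transcript is set beside these genes further on.
Eif1b, chr9:120492567-120492602, plus strand: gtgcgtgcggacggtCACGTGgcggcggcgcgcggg
Eif3f, chr7:108934332-108934367, plus strand: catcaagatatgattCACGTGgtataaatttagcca
Eif3k, chr7:28981912-28981947, minus strand: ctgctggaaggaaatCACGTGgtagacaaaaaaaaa
Eif4a1, chr11:69672592-69672627, minus strand: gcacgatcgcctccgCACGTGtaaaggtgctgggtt
Eif4e, chr3:138527025-138527060, plus strand: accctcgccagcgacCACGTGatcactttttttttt
Eif4e, chr3:138527189-138527224, plus strand: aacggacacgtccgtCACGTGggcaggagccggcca
Eif4h, chr5:134639485-134639520, minus strand: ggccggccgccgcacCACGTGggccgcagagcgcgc
Eif5a, chr11:69920788-69920823, minus strand: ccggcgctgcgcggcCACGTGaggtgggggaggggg
Eif5a, chr11:69921440-69921475, minus strand: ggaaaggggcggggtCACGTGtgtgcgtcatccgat
The sites lie 24 to 228 bases before a start site. The flanks were 26.7% to 90.0% G and C, lowest in Eif3f and highest in Eif4h. In the 6 of these genes above background the difference between the arrays ranged from -0.04 to 0.13, with a median of 0.00. In the 23 genes above background with a window and no CACGTG it ranged from -0.11 to 0.19, with a median of 0.06. The core of the composite ATF4 site, TGATGNAA, was searched on both strands and occurred in 0 of the 31 genes and in 4.51% of all genes. Eif4ebp1, Eif4e3 and Eif6 are not among the 31. A match describes letters in a window and not a site in use.

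The factors that open the search for the start codon differed little. eIF1A, which promotes scanning, is encoded by the near-identical genes Eif1a and Eif1ax, whose probes may share transcripts. Eif1a read 1414 units with OX40L-Tg APC and 1249 units with Wt APC, a difference of 0.18, and 0.23 in its other probe set. Eif1ax read 2456 units with OX40L-Tg APC and 2536 units with Wt APC, and its sets at -0.05 and 0.03 had opposite signs. Eif1b, a paralog of the start codon selection factor eIF1, was level, at 894 units with OX40L-Tg APC and 904 units with Wt APC. Eif1ad, whose product carries an eIF1A-like domain, read 663 units with OX40L-Tg APC and 593 units with Wt APC (0.16, 1 probe set).

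The genes of eIF2 and of its exchange factor eIF2B that had a value stayed within 1.2-fold. eIF2B reloads eIF2 with GTP and is the enzyme that phosphorylated eIF2 blocks. Of 4 genes above the floor, 3 read higher with OX40L-Tg APC, where 54.0% of all genes did, with a median of 0.12. Eif2s2, the beta subunit of eIF2, read 3385 units with OX40L-Tg APC and 3203 units with Wt APC, a difference of 0.08. The regulatory eIF2B subunits Eif2b4 and Eif2b1 were at 0.19 and 0.16. Eif2b4 read 981 units with OX40L-Tg APC and 859 units with Wt APC. Eif2b1 read 798 units with OX40L-Tg APC and 716 units with Wt APC. Eif2b2, also a regulatory subunit, leaned the other way, at 579.5 units with OX40L-Tg APC and 597 units with Wt APC, and its sets agreed at -0.04.

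Both alternative carriers of initiator tRNA were within 1.2-fold and on opposite sides. Eif2d, a factor that can deliver tRNA without GTP and that takes part in recycling of ribosomes, read 889.8 units with OX40L-Tg APC and 781 units with Wt APC (0.19). Its 3 sets above background spanned 0.05 to 0.21. Eif2a, which is distinct from the alpha subunit of eIF2, read 738 units with OX40L-Tg APC and 798 units with Wt APC (-0.11, 1 set).

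The eIF2 alpha kinases sense different stresses and share 1 target, the alpha subunit of eIF2, whose phosphorylation slows initiation in general and favours ATF4 translation. Their transcripts had a median difference of 0.03. Eif2ak4, which encodes GCN2, the sensor of amino acid shortage, read 140.5 units with OX40L-Tg APC and 143 units with Wt APC (-0.03). Eif2ak3, which encodes PERK, the sensor of stress in the endoplasmic reticulum, read 144 units with OX40L-Tg APC and 142 units with Wt APC (0.03). Both differences were within 0.03, and the dimmer sets of Eif2ak3, below background, stood at -0.30 and 0.32. Eif2ak1, the haem-regulated kinase, read 340.2 units with OX40L-Tg APC and 333 units with Wt APC, with sets at 0.03 and -0.08. Eif2ak2, which encodes PKR, the interferon-inducible sensor of double-stranded RNA, read 73.6 units with OX40L-Tg APC and 65.9 units with Wt APC (0.16). Kinase activity and phosphorylation of eIF2 leave no direct trace in these data.

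The subunits of eIF3 formed the tightest of the larger groups. All 10 with a value lay between -0.04 and 0.09, with a median of 0.00. Of these, 5 read higher, where 54.0% of all genes did, and 5 lower, where 46.0% did. Eif3a, Eif3g and Eif3j had no value. The lower side held Eif3k, Eif3e, Eif3f, Eif3h and Eif3l. Eif3k, a peripheral subunit, read 3311 units with OX40L-Tg APC and 3401 units with Wt APC (-0.04). Eif3e read 4652 units with OX40L-Tg APC and 4769 units with Wt APC. Eif3h, a partner of Eif3f in the complex, read 4345 units with OX40L-Tg APC and 4413 units with Wt APC. Eif3f read 4801 units with OX40L-Tg APC and 4899 units with Wt APC, and its other set had the opposite sign, at 0.05. Eif3l, at 2680.0 units with OX40L-Tg APC and 2719 units with Wt APC, likewise had a dimmer set at 0.14.

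The higher side held Eif3b, Eif3c, Eif3d, Eif3i and Eif3m. Eif3d, which can itself bind the cap of certain mRNAs, read 2703 units with OX40L-Tg APC and 2542 units with Wt APC (0.09). Eif3b read 1437 units with OX40L-Tg APC and 1364 units with Wt APC. Eif3c read 3499 units with OX40L-Tg APC and 3359 units with Wt APC. Eif3i read 4892 units with OX40L-Tg APC and 4794 units with Wt APC. Eif3m, whose only set is marked as shared between transcripts, read 2302 units with OX40L-Tg APC and 2214 units with Wt APC. The 5 ranged from 0.03 to 0.09, around the pooled SD of 0.08 between probe sets of an initiation factor. That SD covers only part of the technical scatter. The other set of Eif3c was at 0.12.

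**Figure D3:**
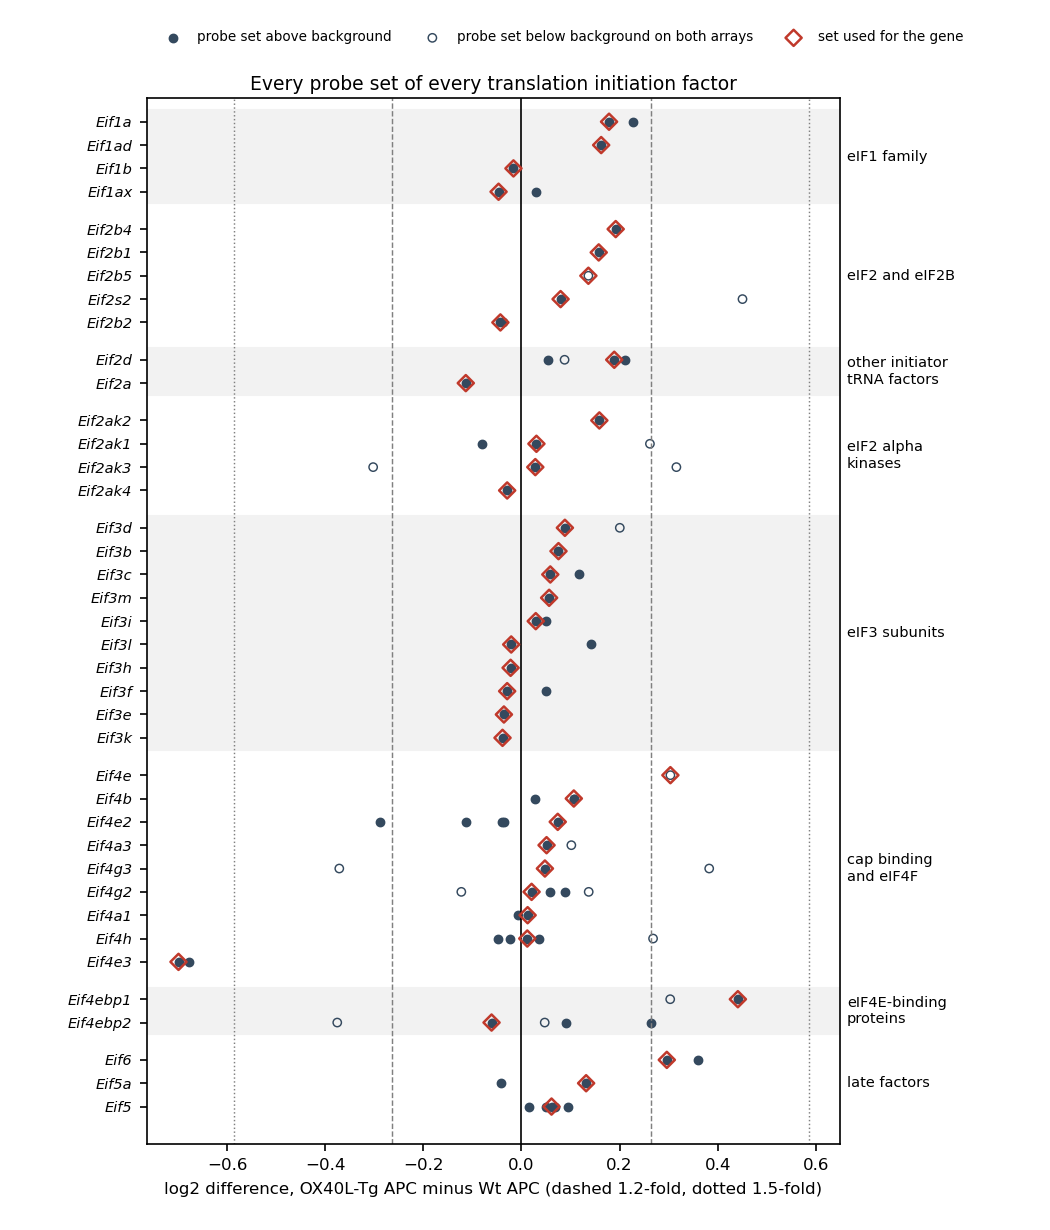
Log2 difference OX40L-Tg APC minus Wt APC (horizontal axis) of all 85 probe sets of the 39 translation initiation factors, grouped by role. Filled points are sets above background on at least 1 array, open points sets below it on both, and diamonds the set used for the gene. The sets of eIF3 subunits crowd around 0, both sets of Eif4e3 lie near -0.7, and sets far from 0 in other genes are mostly below background.

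The cap-binding group held the largest difference of all initiation factors. Eif4e3 encodes a less studied relative of eIF4E that also binds the cap. It read 199 units with OX40L-Tg APC and 324 units with Wt APC, 1.62-fold lower. Its other probe set read 200.1 units with OX40L-Tg APC and 320.1 units with Wt APC. The sets thus gave -0.70 and -0.68, closer to each other than in most genes with several sets. Of all genes above the floor, 2.54% were at or below -0.70. Of 7 CD4 T cell markers 6 were lower on the same array, where 46.0% of all genes were, with a median of -0.30. They ranged from -0.67 for Cd3e to 0.09 for Cd2, and Cd5, counted as lower, was level at -0.01. The relation of these markers to Eif4e3 was not tested.

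The other members of the eIF4E family could be read less well. Eif4e2, which encodes 4EHP, a cap binder that represses rather than starts translation, read 1953 units with OX40L-Tg APC and 1856 units with Wt APC (0.07). Its 5 sets ranged from -0.29 to 0.07, and 4 of them had the opposite sign to the brightest. Eif4e itself was covered by 1 set below background, at 18.3 units with OX40L-Tg APC and 14.8 units with Wt APC. Its 1.2-fold call therefore carries no reading of Eif4e.

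The helicase, cofactor and scaffold genes with a value, of eIF4F or related to it, were within 1.2-fold. Eif4a1, the main helicase of the complex, read 6549.9 units with OX40L-Tg APC and 6493 units with Wt APC, with sets at 0.01 and -0.01. Eif4h and Eif4b encode cofactors that stimulate that helicase. Eif4h read 3871 units with OX40L-Tg APC and 3839.6 units with Wt APC (0.01). Its sets above background ran from -0.05 to 0.04. Eif4b read 2241 units with OX40L-Tg APC and 2081 units with Wt APC (0.11, with sets from 0.03 to 0.11). Eif4a3, a related helicase of the exon junction complex, read 2603 units with OX40L-Tg APC and 2513 units with Wt APC. Eif4g2, which encodes DAP5, a scaffold that does not bind eIF4E, read 4422 units with OX40L-Tg APC and 4359 units with Wt APC, with sets from 0.02 to 0.09. The sets used for Eif4h and Eif4g2 are marked as shared between transcripts. Eif4g3, a paralog of the main scaffold, read 553 units with OX40L-Tg APC and 535 units with Wt APC (0.05). The genes Eif4g1, Eif4a2 and Eif2s1 had no probe set of their own by the rule used and are not analysed here, like Eif4ebp3. The same holds for Eif1, Eif2b3, Eif3a, Eif3g, Eif3j, Eif4e1b, Eif4enif1, Eif5a2 and Eif5b.

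Of both 4E-binding proteins measured, 1 differed. These small proteins hold eIF4E away from eIF4G until mTORC1 phosphorylates them. Eif4ebp1 read 1122 units with OX40L-Tg APC and 826 units with Wt APC, 1.36-fold higher (0.44), the largest positive difference among the initiation factors. Of all genes above the floor, 6.27% were at or above it. Its other set, at 0.30, was below background on both arrays, so the value rests on 1 set. Eif4ebp2 read 811 units with OX40L-Tg APC and 846 units with Wt APC (-0.06), with dimmer sets at 0.09 and 0.26, so its direction is not settled.

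Among the late factors Eif6 stood out. eIF6 keeps the large ribosomal subunit from joining the small subunit too early and takes part in making that subunit. Eif6 read 2524 units with OX40L-Tg APC and 2055 units with Wt APC, 1.23-fold higher (0.30). Its other set, just above background, gave 0.36. Of all genes above the floor, 12.0% were at or above 0.30, so the size is not rare among them. Of genes with a mean of at least 1000 units, as Eif6 has, 6.32% were at least 1.2-fold higher. Eif5, which triggers GTP hydrolysis by eIF2 at the start codon, read 2091 units with OX40L-Tg APC and 2004 units with Wt APC, with 5 sets from 0.02 to 0.09. Eif5a, whose hypusine-bearing product aids elongation and termination, read 6922 units with OX40L-Tg APC and 6318 units with Wt APC (0.13). Its other set was at -0.04, and both sets are marked as shared, so Eif5a has no settled direction.

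Other genes of translation and of its control were read from fixed lists, whose members were chosen with earlier results of these arrays known. Of 8 elongation factor genes 4 read higher, where 54.0% of all genes did, with 0 past 1.2-fold and a median of -0.01. They ranged from -0.13 for the elongation factor kinase Eef2k, which was below background, to 0.22 for Eef1e1, a scaffold of the tRNA synthetase complex. Genes of termination and recycling were higher in 6 of 6, where 54.0% of all genes were, with a median of 0.13. They ranged from 0.01 for Denr, a recycling factor whose other set was at -0.14, to 0.52 for Gspt2, below background on both arrays and the only 1 past 1.2-fold. Genes of poly(A)-binding proteins and their regulators were lower in 4 of 5, where 46.0% of all genes were, from -0.23 for the translational inhibitor Paip2 to 0.11 for the activator Paip1. In 2 of those 4 another set had the opposite sign, at 0.47 in Pabpc1 and 0.04 in Pabpc4, beside -0.05 in the set used for each.

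Both enzymes that make hypusine on eIF5A read higher, where 54.0% of all genes did. Dhps, the first enzyme, read 509 units with OX40L-Tg APC and 425 units with Wt APC (0.26, with its other set at 0.30). Dohh, the second, read 444 units with OX40L-Tg APC and 364 units with Wt APC (0.29). That passes 1.2-fold, as 14.3% of all genes did upward.

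Genes of mTORC1 and of kinases acting on initiation had a median of -0.01, with 5 of 10 higher, where 54.0% of all genes were. They reached 0.16 for Mlst8, an mTOR subunit. Pdcd4, an inhibitor that binds eIF4A and is removed after phosphorylation by the kinase S6K, was the only 1 past 1.5-fold, where 3.36% of all genes were lower by that size. It read 767 units with OX40L-Tg APC and 1292 units with Wt APC (-0.75), in 1 probe set. Among genes whose products restrain eIF4F, Eif4ebp1 thus read higher and Pdcd4 lower, each by 1 set above background, and Eif4ebp2 had no settled direction.

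Of the genes listed for the integrated stress response, which eIF2 phosphorylation sets off, 11 of 13 read higher, where 54.0% of all genes did. The eIF2 alpha kinases had a median of 0.03. Of 13, 11 reached 1.2-fold and 5 reached 1.5-fold upward, beside 14.3% and 3.86% of all genes, with a median of 0.48. Atf4, the factor at its centre, read 2750.2 units with OX40L-Tg APC and 2026 units with Wt APC (0.44). Eif4ebp1 is a known ATF4 target and stood at 0.44 as well. Past 1.5-fold were Chac1 (2.10), Trib3 (1.16), Asns (1.03), Sesn2 (0.86) and Ddit3 (0.83), with the lowest, the GCN2 coactivator Gcn1, at -0.23. The list's shift was already known when Eif4ebp1 was set beside it, so the match is a description. MHC class II genes were also higher, by a median of 0.46 over 6 genes above the floor, and their part here was not tested.

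Myc itself read 1631 units with OX40L-Tg APC and 1772 units with Wt APC (-0.12). Of the 5 genes of its list, Myc included, 4 were lower, where 46.0% of all genes were, from -0.84 for Mxd1, an antagonist of Myc, to 0.02 for the repressor Mnt. Mxd1 read 126 units with OX40L-Tg APC and 225 units with Wt APC, with a second set at -0.51. The 6 initiation factors above background with a CACGTG in their window stood at a median of 0.00, beside 0.06 in the 23 without it. The relation of Myc to these genes was not tested.

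**Figure D4:**
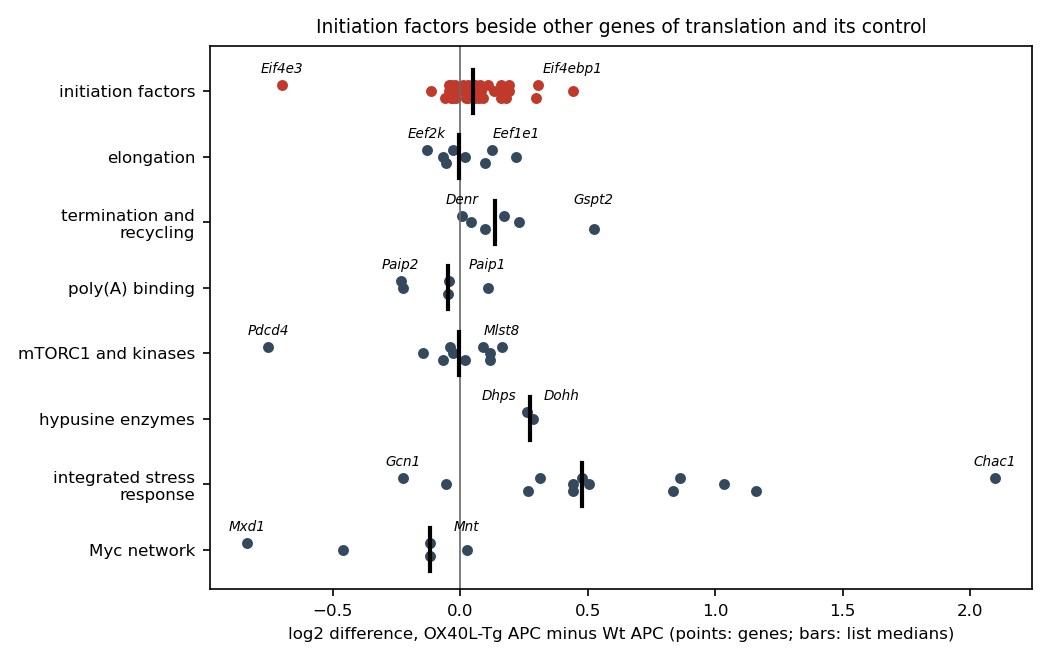
Log2 difference OX40L-Tg APC minus Wt APC (horizontal axis) of each gene above the floor in the initiation factors and in 7 lists of other translation and control genes, with list medians as bars and the outermost genes named. The initiation factors cluster near their median of 0.05, while the integrated stress response has its median at 0.48 and reaches 2.10 in Chac1.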

How the data were processed

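The authors deposited linear intensities per probe set. These are RMA values per the submitters' processing notes. That method corrects background, equalises arrays and summarises probes, so it draws low values together, and a change in total RNA per cell leaves no trace. Its version and the arrays normalized together are not given in the sources used here. Of 45141 probe sets, 28898 had 1 gene symbol, 551 several (5 of them with an Eif symbol, used for no gene) and 15692 none. Values were taken to log2. For each gene the brightest probe set, by its mean of both arrays, was used. The number of arrays, 1 per group, limits the precision, so there is no test, SE or p-value, and sizes of 1.2-fold, 1.5-fold and 2-fold served as thresholds. Members, lists, motifs and thresholds were chosen with earlier results of these data known. The naming rule took the 6 largest differences in each direction, the brightest gene of each role group and a fixed set, and the text gives every other initiation factor too. Alternatives were the summary over probe sets, the floor, a lowess correction (span 0.3), centring, quantile normalization, shared probe sets, a pseudocount of 16 units and the mean over members. The background level was added after seeing the data. Python 3.11.15, numpy 2.4.6, pandas 2.3.3, statsmodels 0.14.6 and matplotlib 3.10.9 were used, and the calculation of differences was tested on simulated data.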

Additional observations from a re-analysis of the deposited data

How the results depend on the processing

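The median difference of the initiation factors stayed between 0.02 and 0.06 under the main setting and 11 alternatives. In the 10 alternatives that give counts, 23 to 27 read higher, of the 36 to 39 genes kept. The count past 1.5-fold was 1 lower (Eif4e3) and 0 higher in each of the 10 alternatives that give counts. With the median over all probe sets of a gene in place of the brightest, 6 passed 1.2-fold upward and 2 downward, because dim sets then weigh in Eif2s2 (0.27), Eif4g3 (0.38), Eif4ebp2 (0.26) and Eif4e2 (-0.29). Under 7 alternatives each, Eif4e3 ranged from -0.74 to -0.66, Eif4ebp1 from 0.37 to 0.44 and Eif6 from 0.28 to 0.33. Among the genes chosen by the naming rule, Eif2ak1, Eif2ak3, Eif3f, Eif4a1 and Eif4ebp2 took the other sign under 1 or 2 alternatives. All of these had differences of at most 0.06 in size as reported. The remaining initiation factors were not followed singly through the alternatives. Some of those also changed sign, among them Eif4e2, reported at 0.07, and Eif4h, reported at 0.01, with the median over their sets. Eif3l, reported at -0.02, did so too, since its other set stood at 0.14. Eif2ak3 stood at 0.32 with the median over its sets, a value below the floor. The count of 3 past 1.2-fold upward became 2 with a pseudocount of 16 units, with the floor at the 75th percentile or with genes above background, each time without Eif4e. Without shared probe sets 36 initiation factors above the floor were left, and Eif5a and Eif3m had no value. No paired analysis was possible because each group has 1 array, and for the same reason no array could be left out. Signal limits Eif4e and Eif2b5, which did not exceed background on either array.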
